A study of Rattus norvegicus with 12 samples.

Results

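Muscle excitation depends on a small set of ion channels, and 7 of their genes were examined: Scn4a and Scn4b for the sodium current, Clcn1 and Clcn4 of the CLC chloride family, and Cacna1s, Cacng1 and Cacnb1 for the calcium channel of the transverse tubule. The members were set by gene symbol, with earlier results of these data known. Of the 7, 6 were measured, out of 14329 genes with a probe set of a single symbol. Cacna1s had 0 probe sets under its symbol in the annotation and was dropped, so the pore of the calcium channel is not described. Each of the other members had 1 probe set.

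The arrays came from male F344 rats studied 1 week after surgery under anaesthesia with ketamine at 75 mg/kg together with 10 mg/kg of xylazine. The recurrent laryngeal nerve is the motor nerve of the muscles sampled. Injured rats had this nerve cut on a single side and 1 cm of it taken out, and control rats had the same approach with the nerve left whole. The muscles were the posterior cricoarytenoid (PCA), the abductor that opens the glottis, and the adductor complex (AC) of the larynx, which closes it. The 4 groups of 3 arrays were PCA injury, PCA control, AC injury and AC control. The labels give 10 animals per surgery group. They do not say whether an array holds a separate animal, a pool or a shared animal, nor which side of the larynx was sampled or how old the rats were, so p-values measure the spread between arrays, which may be technical. A single time after removal of nerve was studied.

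In a muscle fibre, the action potential starts when voltage-gated sodium channels open and is carried inward along the transverse tubules. Chloride channels hold the resting membrane stable, and too little chloride current leaves fibres that fire repeatedly, the basis of myotonia congenita. In the tubule membrane the calcium channel, also called the dihydropyridine receptor, acts as the voltage sensor that opens the ryanodine receptor of the sarcoplasmic reticulum. Denervated mammalian muscle is known for a lower resting chloride conductance.

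Expression was measured on whole-transcript arrays. Values are log2 levels, and are relative to the other genes of the same array. Differences are injury minus control with the standard error (SE) from limma, a linear model fitted to all genes, with p-values adjusted by Benjamini-Hochberg over the 14329 genes and a threshold of 0.05. Levels of different genes are not set against each other, since probes differ in brightness. These were bulk specimens, in which fewer fibres and less RNA per fibre cannot be told apart.

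The third injured PCA array stood apart before any test. It was the highest of its group for 6 of 6 members, and the first injured PCA array was the lowest for 6 of 6. The mean log2 level of a 22-gene muscle fibre list, which holds no member, was 11.46, 11.74 and 12.30 in injured PCA arrays 1 to 3, against 12.34 to 12.51 in control PCA. It was 11.75 to 12.04 in injured AC, against 12.13 to 12.36 in control AC. All arrays thus carried abundant fibre transcripts, with the third injured PCA array close to control on this list. The mean level of 9 denervation response genes was not close to control on it. It was 10.08, against 9.57 and 9.54 in injured PCA 1 and 2 and 7.92 to 8.97 in control PCA. For each member in PCA, the difference is given with and without that array. Leaving out each of 12 arrays in turn, the smallest falls in PCA were -1.392 for Scn4b, -1.393 for Clcn1 and -1.225 for Clcn4. These 3 passed limma each time (highest adjusted p = 0.0232, 0.00655 and 0.00285). The smallest fall of Scn4a was -0.408, and its highest limma adjusted p was 0.262.

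The specimens also differed in other tissue. The squamous epithelium score (mean log2 level of 11 measured markers of 16 listed) was 11.25 to 11.82 in injured PCA, against 7.56 to 10.76 in control PCA, with 11 of 11 markers higher by the test. The adipocyte score (10 markers) was 7.41 to 8.05 in injured PCA, against 8.66 to 9.09 in control PCA (9 lower). Cartilage markers (9 of 11 measured) scored 8.35 to 8.84 in injured PCA, against 9.74 to 10.49 in control PCA (8 lower). Macrophage markers (9 of 10 measured) scored 10.03 to 10.49 in injured PCA, against 8.36 to 9.08 in control PCA (8 higher), and 9.90 to 10.29 in injured AC, against 9.23 to 9.53 in control AC (3 higher). In AC no squamous, adipocyte or cartilage marker passed. Schwann cell and myelin markers (7 of 9 measured) scored 8.17 to 8.28 in injured PCA, against 8.50 to 8.56 in control PCA (2 lower), and 8.19 to 8.34 in injured AC, against 8.45 to 8.57 in control AC (0 passed by limma, 6 at an unadjusted p under 0.05). Airway epithelium markers (8 of 11 measured) scored 9.96 to 10.31 in injured AC, against 10.33 to 10.49 in control AC (0 passed by limma, 3 at an unadjusted p under 0.05). In PCA they scored 9.82 to 10.20 after injury, against 9.98 to 10.16 in control (1 higher, 2 lower). Of 6 smooth muscle markers measured, 2 were lower in PCA and 1 in AC. Of 7 neuron markers, 1 was higher in PCA and 0 passed in AC. Thyroid and parathyroid transcripts were high on 3 arrays, with scores of 9.75 in injured PCA 2, 9.94 in control PCA 1 and 8.66 in injured AC 2, against 6.31 to 7.40 on the other arrays. The part of these tissues in the results below was not tested, except that fits without the 3 thyroid arrays and with the squamous score as a covariate are given where they end a member's call, and as counts for related genes. Denervation response genes rose in both muscles, 9 of 9 measured in each.

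The promoters of 4 members are shown because these members had lower mean levels after injury in both muscles, and the sequences show what their start regions have in common. Each runs from 250 bases before to 50 after the gene start, from RefSeq on GRCr8, 5′ to 3′ on the gene's strand. Capitals mark the E-box CANNTG, a broad pattern that takes in sites of myogenic factors such as MyoD and myogenin but is not particular to them. They also mark the site known by the name of the Mef2 factors. Both patterns were searched on both strands. Coordinates are chr10:91796275-91796574 on the minus strand for Scn4a, chr8:54343623-54343922 on the plus strand for Scn4b, chr4:72138928-72139227 on the plus strand for Clcn1 and chrX:27290689-27290988 on the plus strand for Clcn4.
Scn4a: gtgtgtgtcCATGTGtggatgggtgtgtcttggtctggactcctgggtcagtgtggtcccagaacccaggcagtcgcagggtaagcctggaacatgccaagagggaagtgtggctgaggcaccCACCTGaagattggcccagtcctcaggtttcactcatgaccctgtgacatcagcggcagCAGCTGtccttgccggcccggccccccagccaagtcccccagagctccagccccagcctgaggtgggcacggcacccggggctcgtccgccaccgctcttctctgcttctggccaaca
Scn4b: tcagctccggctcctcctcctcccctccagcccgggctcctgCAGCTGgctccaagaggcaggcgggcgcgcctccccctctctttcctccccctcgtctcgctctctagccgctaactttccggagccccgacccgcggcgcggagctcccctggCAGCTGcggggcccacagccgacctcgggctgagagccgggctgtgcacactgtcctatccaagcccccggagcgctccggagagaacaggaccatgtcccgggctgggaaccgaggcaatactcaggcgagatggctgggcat
Clcn1: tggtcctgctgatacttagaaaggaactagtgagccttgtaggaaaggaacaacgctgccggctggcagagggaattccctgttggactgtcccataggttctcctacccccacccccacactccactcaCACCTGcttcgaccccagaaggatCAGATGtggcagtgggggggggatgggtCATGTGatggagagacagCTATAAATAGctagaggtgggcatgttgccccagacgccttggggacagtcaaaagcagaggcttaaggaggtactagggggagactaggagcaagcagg
Clcn4: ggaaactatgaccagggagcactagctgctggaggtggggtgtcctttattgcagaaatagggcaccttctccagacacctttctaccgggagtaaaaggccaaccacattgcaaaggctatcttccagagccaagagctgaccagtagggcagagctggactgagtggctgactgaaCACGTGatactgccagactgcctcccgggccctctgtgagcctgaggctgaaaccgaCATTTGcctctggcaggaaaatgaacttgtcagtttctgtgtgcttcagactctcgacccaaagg
Scn4a and Clcn1 held 3 E-boxes, and Scn4b and Clcn4 held 2. Cacna1s, whose promoter is in the table but whose transcript was not measured here, also held 2. Of 33465 promoters of the same length, 72.1% held at least 1 E-box, 38.6% at least 2 and 16.6% at least 3. Clcn1 alone of the 5 promoters searched held a Mef2 match, CTATAAATAG, which starts at base -50 and overlaps no E-box, and 3.8% of all promoters held one. Its letters include TATAAA, those of a TATA box. These matches are descriptions of the letters only. The table held no entry for Cacng1 or Cacnb1.

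The first question was how the members differed after nerve injury in the PCA. Transcripts of both chloride family genes and of the sodium channel beta subunit fell, by about 2.8-fold to 3.5-fold, while the calcium channel subunits did not pass the test. Of 6 members 3 fell and 0 rose, where 12.5% of all genes fell and 13.3% rose. The median difference was -1.08 over the members and -0.03 over all genes. The members were chosen with earlier results known, so their contrasts with all genes, here and in AC, are not independent support.

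Clcn1 encodes the main chloride channel of the fibre surface, ClC-1. Its log2 level was 7.51, 7.93 and 8.73 in injured PCA, against 9.59, 9.78 and 9.80 in control PCA. All injured arrays lay below all controls, as they did for 18.8% of all genes. The difference was -1.67 ± 0.25 (SE, n = 3 each), 3.17-fold lower (limma adjusted p = 0.00117), the fall ranked 32 of 14329 genes. Without the third injured array it was -2.00 (adjusted p = 0.000183).

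Clcn4 encodes an exchanger of chloride for protons on intracellular membranes rather than a surface channel. Its log2 level was 6.92, 7.51 and 7.78 in injured PCA, against 8.78, 8.81 and 9.02 in control PCA, again with no overlap. The difference was -1.47 ± 0.18, 2.76-fold lower (limma adjusted p = 0.00042), the smallest adjusted p of the 6 members. The third injured array lay 1.09 below the control mean, so it did not resemble a control for this gene, and the difference without it was -1.66 (adjusted p = 0.00023).

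Scn4b encodes the beta-4 subunit, a membrane protein that binds the sodium channel pore and alters its gating. Its log2 level was 7.14, 7.61 and 9.14 in injured PCA, against 9.69, 9.94 and 9.67 in control PCA. The injured arrays all lay below the controls but spread widely (SD 1.05, against 0.15 in controls). The difference was -1.80 ± 0.38, 3.49-fold lower (limma adjusted p = 0.00628), the largest in size of the 6 members and ranked 25 among the falls of all genes. It was -2.39 without the third injured array (adjusted p = 9.85e-05). The call was lost without the 3 thyroid arrays (-1.67, limma adjusted p = 0.0614) and with the squamous score as a covariate (-2.32, adjusted p = 0.0756). It was also lost with the denervation response score as a covariate (-2.81, adjusted p = 0.067), a fit chosen after seeing the data. That score itself rose with injury, so this last fit cannot separate it from the injury effect.

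Scn4a encodes the pore of the adult skeletal muscle sodium channel, Nav1.4. Its log2 level was 8.55, 9.01 and 9.82 in injured PCA, against 9.64, 10.01 and 9.82 in control PCA. The third injured array equalled the middle control, and the groups overlapped. The difference of -0.70 ± 0.26 did not pass (95% interval -1.28 to -0.12, limma adjusted p = 0.0763). Without the third injured array it was -1.04 and passed (adjusted p = 0.00327), so a single array decides this call.

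The calcium channel subunits behaved otherwise. Cacng1 encodes the gamma-1 subunit, a membrane protein that limits the muscle calcium current in mice. Its log2 level was 9.34, 9.44 and 10.66 in injured PCA, against 9.54, 10.12 and 9.79 in control PCA, with injured arrays on both sides of the controls. The difference was -0.0033 ± 0.31 (95% interval -0.69 to 0.68, limma adjusted p = 0.997), an interval that does not exclude a change of 1.5-fold either way. Without the third injured array it was -0.43 (adjusted p = 0.184).

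Cacnb1 encodes the beta-1 subunit, which sits on the inner side of the membrane and is needed to place the channel in the tubule. Its log2 level was 9.46, 9.57 and 10.24 in injured PCA, against 9.07, 9.77 and 9.50 in control PCA. The groups overlapped, and the difference was 0.31 ± 0.21 (95% interval -0.15 to 0.77, limma adjusted p = 0.319), or 0.07 without the third injured array (adjusted p = 0.831). The plot of levels by array shows Scn4b, Clcn1 and Clcn4 in injured PCA below all their controls. Scn4a and the calcium channel subunits overlapped theirs.

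**Figure D1:**
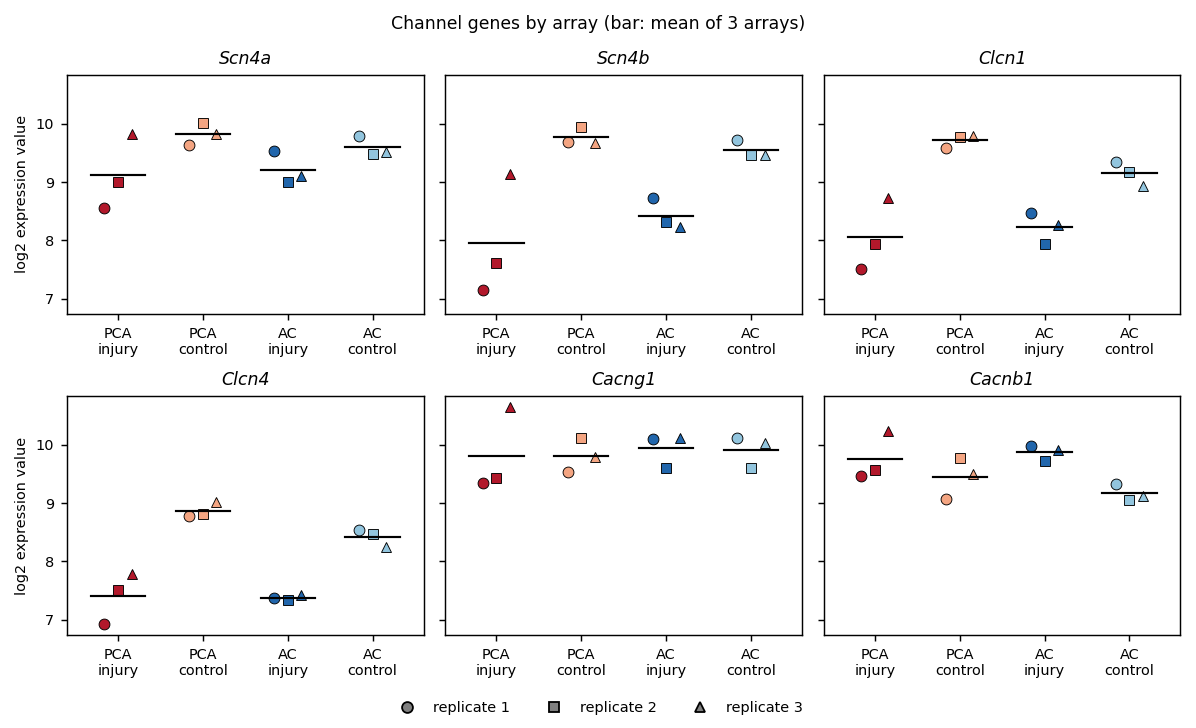
Log2 level of each measured member (vertical axis, to be read within a gene) on every array, by group from left to right as PCA injury, PCA control, AC injury and AC control. Points are arrays, their shapes the replicate numbers, and bars group means. Clcn1 lay between 7.51 and 8.73 in injured PCA, below all controls, while Cacng1 in injured PCA (9.34 to 10.66) spanned its controls.

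The same comparison in the AC addressed the muscles that close the glottis. Clcn4 alone of the 6 members passed, where 0.761% of all genes fell and 1.15% rose, and the median difference was -0.66 over the members and 0.02 over all genes. By position, 3 members lay wholly below control and 1 wholly above, where the groups did not overlap for 13.1% of all genes downward and 15.3% upward. At an unadjusted p under 0.05 there were 4 members. The share of all genes at this looser threshold was not counted. The shares above therefore do not apply to it, here or for the other lists.

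Clcn4 was at 7.37, 7.34 and 7.43 in injured AC, against 8.54, 8.47 and 8.24 in control AC. The injured arrays were nearly equal (SD 0.046, against 0.16 in controls). The difference was -1.04 ± 0.18, 2.05-fold lower (limma adjusted p = 0.0233). The call was lost on leaving out injured AC 2 or 3 or control AC 1 or 2 (adjusted p = 0.101, 0.0787, 0.0871 and 0.116), without the 3 thyroid arrays (-1.02, adjusted p = 0.132) and with a block for replicate number (adjusted p = 0.0528), although the difference itself moved little.

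Clcn1 was at 8.47, 7.94 and 8.26 in injured AC, against 9.35, 9.17 and 8.94 in control AC. The groups did not overlap, and the difference of -0.93 ± 0.25 did not pass (1.91-fold lower, limma adjusted p = 0.0816). Scn4b was at 8.72, 8.31 and 8.23 in injured AC, against 9.72, 9.47 and 9.47 in control AC. It too had no overlap, with a difference of -1.13 ± 0.38 (2.19-fold lower, limma adjusted p = 0.135), and ranked 38 among the falls of all genes.

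Scn4a was at 9.53, 9.00 and 9.10 in injured AC, against 9.80, 9.49 and 9.52 in control AC, and the groups overlapped through the first injured array. The difference was -0.39 ± 0.26 (limma adjusted p = 0.446). Cacng1 was at 10.11, 9.60 and 10.12 in injured AC, against 10.12, 9.60 and 10.03 in control AC, nearly the same values in both groups (0.03 ± 0.31, 95% interval -0.66 to 0.71, adjusted p = 0.975).

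Cacnb1 was the member whose injured AC arrays lay wholly above control, at 9.98, 9.73 and 9.92 in injured AC, against 9.33, 9.05 and 9.13 in control AC. The difference of 0.71 ± 0.21, 1.63-fold, did not pass (95% interval 0.25 to 1.17, limma adjusted p = 0.0974). Without the third injured PCA array, which enters only through the shared estimate of spread, Scn4b, Clcn1 and Cacnb1 passed in AC as well (adjusted p = 0.0089, 0.0183 and 0.039), at unchanged differences. They also passed with the AC groups fitted alone (adjusted p = 0.0164, 0.0295 and 0.0213).

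**Figure D2:**
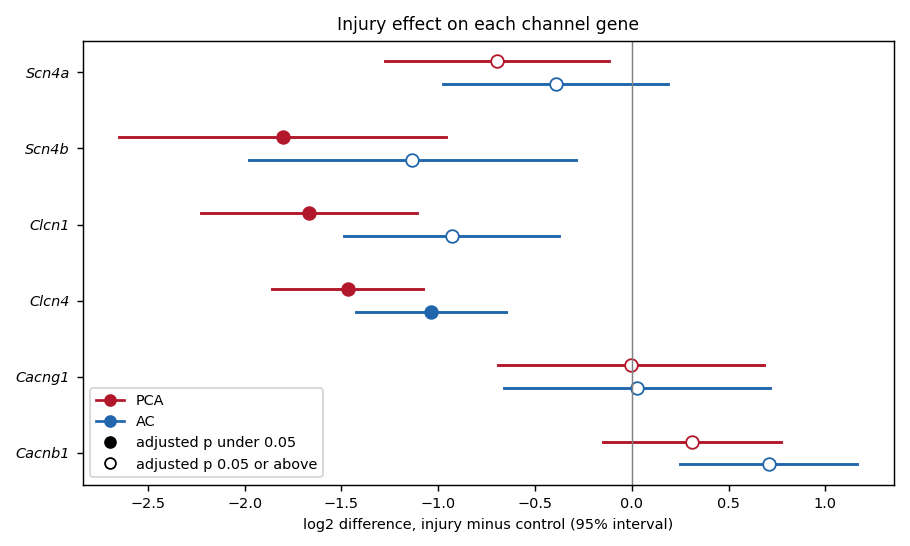
Injury minus control in log2 units (horizontal axis) for each measured member, PCA above AC, as points with 95% intervals from limma, filled where the adjusted p was under 0.05. The intervals of Scn4b, Clcn1 and Clcn4 lie below 0 in both muscles, that of Cacnb1 above 0 in AC (0.25 to 1.17), and those of Cacng1 span 0; intervals are not adjusted for the number of genes.

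Whether the injury effect differed between the muscles was tested as PCA effect minus AC effect. The difference was negative for 6 of 6 members and passed for 0 (0 also at an unadjusted p under 0.05), where 0.154% of all genes passed. It was -0.74 ± 0.36 for Clcn1 (limma adjusted p = 0.356), -0.67 ± 0.54 for Scn4b (0.595), -0.43 ± 0.25 for Clcn4 (0.443) and -0.40 ± 0.30 for Cacnb1 (0.56). The larger falls in PCA are thus not shown to differ from those in AC. For Scn4b the 95% interval ran from -1.86 to 0.52.

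In control rats the levels of PCA and AC were compared as a baseline. The control specimens differed in tissue too. By limma 11 of 11 squamous markers were lower in PCA, and 8 of 9 cartilage and 8 of 10 adipocyte markers higher. The fibre list mean was 12.34 to 12.51 in control PCA, against 12.13 to 12.36 in control AC. The part of this in the member differences was not tested. Clcn1 and Clcn4 were higher in all control PCA than in all control AC arrays, by 0.57 ± 0.25 and 0.45 ± 0.18, which did not pass (limma adjusted p = 0.178 and 0.131). No overlap with PCA above AC was found for 17.7% of all genes, and 10.6% passed the test. The other 4 members overlapped, with differences of -0.10 to 0.28, and 0 of 6 passed (2 at an unadjusted p under 0.05). After injury, 6 of 6 members overlapped between PCA and AC, with differences of -0.46 to 0.02. In that comparison 0 members and 0% of all genes passed (0 members at an unadjusted p under 0.05), and 6.48% of all genes had groups that did not overlap.

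By group mean, Clcn1, Scn4b and Scn4a had the same order of levels, highest in control PCA and then in control AC, injured AC and injured PCA. The injured groups of the 2 muscles overlapped for each of these genes. Clcn4 had its lowest mean in injured AC (7.38 ± 0.046, SD), next to 7.40 ± 0.44 in injured PCA. Cacnb1 was highest in injured AC (9.88 ± 0.13), followed by injured PCA (9.76 ± 0.42), control PCA (9.45 ± 0.35) and control AC (9.17 ± 0.14).

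Each injured array was also set against the mean of its own control group. For Scn4b the 3 injured PCA arrays deviated by -2.63, -2.16 and -0.63, and for Clcn1 by -2.21, -1.79 and -0.99. For Clcn4 they deviated by -1.95, -1.36 and -1.09. The fibre list mean moved in the same array order, at -0.95, -0.68 and -0.12. In AC the fibre list deviated by -0.20, -0.49 and -0.27 on injured arrays 1 to 3, and Clcn4 by -1.05, -1.08 and -0.99.

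**Figure D3:**
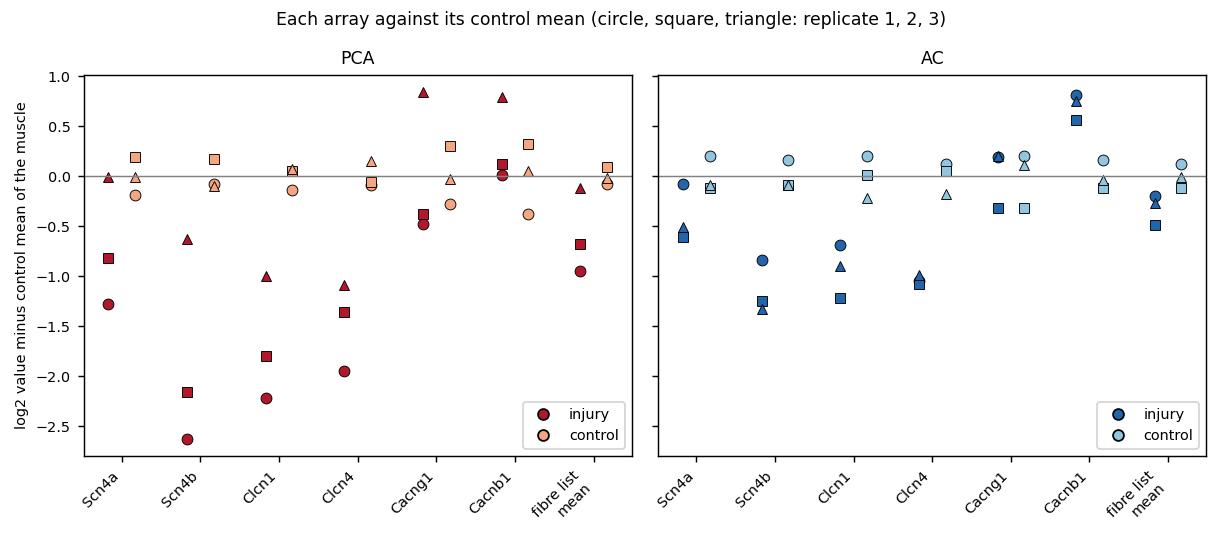
Deviation of each array (injury left of control, shapes for replicates 1 to 3) from the control mean of its muscle in log2 units, for the measured members and for the mean of 22 muscle fibre genes, in PCA and AC. In PCA the third injured array lies highest of its group for every item, from -1.09 for Clcn4 to 0.84 for Cacng1, beside -0.12 for the fibre list.

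Set against the fibre list, the chloride genes and Scn4b lay lower than every fibre gene measured. In PCA 13 of the 22 fibre genes fell and 0 rose, with a median of -0.57 (-1.16 for Pgam2, a muscle glycolytic enzyme, to -0.05 for Acta1, skeletal actin). In AC 0 passed by limma (6 at an unadjusted p under 0.05), with a median of -0.33 (-0.93 for Pvalb, a calcium buffer of fast fibres, to 0.09 for Des, the intermediate filament desmin). Scn4a stood among the fibre genes, with 9 of 22 lower in PCA and 10 in AC. Cacnb1 had a higher difference than 22 of 22 in both muscles.

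With the fibre list mean taken off every array, the members were compared per unit of fibre transcripts. This scaling moves the median of all genes to 0.56 in PCA and 0.33 in AC, so the signs below are relative to fibre genes and not to the array. In PCA, Clcn1 (-1.09, limma adjusted p = 0.000341), Clcn4 (-0.89, 0.00186) and Scn4b (-1.22, 0.0013) still fell, and Scn4a was at -0.12 (0.577). Cacnb1 then passed upward at 0.89 (0.0015) and Cacng1 at 0.58 (0.0299), whose unscaled value was -0.0033. On this scale 54.3% of all genes were called higher in PCA and 1.04% in AC, and the scaled PCA difference of Cacng1 lay close to the all-gene median of 0.56. Scaled Cacnb1 was at 10.10, 9.94 and 10.04 in injured PCA, against 8.83, 9.36 and 9.21 in control PCA. It was at 10.04, 10.08 and 10.05 in injured AC, against 9.07, 9.03 and 9.00 in control AC (1.02, adjusted p = 0.0103). On this scale the third injured PCA array no longer stood apart for Cacnb1. In AC, Clcn4 did not pass when scaled (-0.72, adjusted p = 0.0722).

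Within each pair of related genes, the difference of both log2 levels was centred on its mean over the arrays of the control group of the same muscle, and injury was compared with control by an exact two-sided permutation test. The pairs were chosen after values were seen, 6 relations were computed, and 3 arrays against 3 cannot give a p below 0.1. Scn4b minus Scn4a was at -1.35, -1.34 and -0.62 in injured PCA, against 0.11, -0.01 and -0.09 in control PCA (-1.11, exact p = 0.1, adjusted p = 0.2). In AC it was at -0.76, -0.64 and -0.82 after injury, against -0.03, 0.03 and 0.00 in control (-0.74, exact p = 0.1, adjusted p = 0.2). The beta subunit was thus lower relative to the pore on 6 of 6 injured arrays. Clcn1 minus Clcn4 differed by -0.20 in PCA and 0.11 in AC (exact p = 0.3 and 0.6), and Cacng1 minus Cacnb1 by -0.31 and -0.68 (exact p = 0.3 and 0.1, adjusted p = 0.2 to 0.6 over these 4).

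Other genes of the same systems were described from lists. Their counts stand beside 12.5% of all genes that fell and 13.3% that rose in PCA. In AC these shares were 0.761% and 1.15%. Of the 21 related genes named below as rising or falling in PCA, 18 passed without the third injured PCA array and 13 without the 3 thyroid arrays. With the squamous score as a covariate 1 of the 21, Cacna2d3, passed and 20 did not. Over all genes, the 3697 calls in PCA became 3558, 2335 and 370 in these fits, in the order given. Of 12 other sodium channel genes 9 were measured, and in PCA 2 fell and 0 rose. These were Scn7a, a channel that in mice responds to the sodium level (-0.65 ± 0.17, limma adjusted p = 0.0191), and Scn1a, a neuronal pore (-0.62 ± 0.13, adjusted p = 0.00537), which lay near the dim end of the array, at 5.41 to 5.65 in injured PCA, against 5.97 to 6.32 in control PCA. The Scn1a call was lost under 5 of 23 alternatives. The Scn7a call was lost without the third injured PCA array (-0.60, adjusted p = 0.0527). Schwann cell markers were also lower in injured PCA (above), and their part in the Scn7a value was not tested. Scn7a was at 8.50, 8.92 and 8.57 in injured PCA, against 9.32, 9.18 and 9.43 in control PCA. In AC 0 passed by limma (2 at an unadjusted p under 0.05).

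Of 9 other CLC genes 7 were measured, and in PCA 2 rose and 0 fell, where 13.3% of all genes rose. By sign, 4 of the 7 differences were positive and 3 negative. Clcn7, the exchanger of lysosomes, was at 9.13, 8.97 and 8.80 in injured PCA, against 8.57, 8.52 and 8.39 in control PCA (0.47 ± 0.11, limma adjusted p = 0.00836). Clcn5, an exchanger of endosomes, differed by 0.32 ± 0.11 (adjusted p = 0.0479), a call lost under 15 of 25 alternatives. Clcn3, another endosomal exchanger, was at -0.42 ± 0.15 (adjusted p = 0.0596). In AC 0 passed by limma (2 at an unadjusted p under 0.05).

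Of 23 other calcium channel genes 22 were measured, and in PCA 5 fell and 1 rose. The beta subunits parted. Cacnb3 was at 8.80, 8.35 and 8.25 in injured PCA, against 7.45, 7.75 and 7.68 in control PCA (0.84 ± 0.19, limma adjusted p = 0.00766). It was 0.58 ± 0.19 higher in AC, without passing (adjusted p = 0.117). Cacnb2 (-0.95 ± 0.25, adjusted p = 0.0158) and Cacnb4 (-0.76 ± 0.17, adjusted p = 0.00706) fell in PCA, although Cacnb4 too lay near the dim end, at 5.39 to 6.10 in injured PCA, against 6.21 to 6.60 in control PCA.

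Among pores, Cacna1d, an L-type channel of neurons, endocrine cells and the sinoatrial node, was at 6.62, 6.96 and 6.55 in injured PCA, against 8.20, 7.49 and 7.77 in control PCA (-1.11 ± 0.20, limma adjusted p = 0.00275). Its control level was also 0.73 ± 0.20 higher in PCA than in AC (adjusted p = 0.04), where the adipocyte score was 8.66 to 9.09, against 7.52 to 7.61 in control AC, and its part was not tested. The accessory alpha-2-delta genes Cacna2d3 (-0.89 ± 0.16, adjusted p = 0.00298) and Cacna2d1, the muscle form (-0.65 ± 0.21, adjusted p = 0.0443), fell, the Cacna2d1 call being lost under 16 of 25 alternatives. The T-type pore Cacna1h was at -0.15 ± 0.09 in PCA (adjusted p = 0.284). In AC 0 of 22 passed by limma (3 at an unadjusted p under 0.05).

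The partners of the calcium channel at the triad, where tubule meets sarcoplasmic reticulum, gave 14 measured of 14 listed. In PCA 7 fell and 1 rose, with a median of -0.42, but the fibre list itself had a median of -0.57. Ryr1, the calcium release channel, was at 11.12, 11.42 and 11.95 in injured PCA, against 11.88, 12.23 and 12.10 in control PCA (-0.57 ± 0.18, limma adjusted p = 0.0386). Stac3, an adaptor that the voltage sensor needs, was at 9.08, 9.26 and 10.31 in injured PCA, against 10.21, 10.54 and 10.51 in control PCA (-0.87 ± 0.25, adjusted p = 0.0274). Both overlapped with control through the third injured array, and without it the differences were -0.80 and -1.25. The calls of Ryr1, Stac3 and Trdn were lost under 14, 9 and 9 of 25 alternatives.

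Hrc, a calcium-binding protein of the reticulum (-1.05 ± 0.23, adjusted p = 0.00695), Trdn, the anchor triadin (-0.72 ± 0.18, adjusted p = 0.0149), and Mtm1, the phosphatase myotubularin (-0.45 ± 0.10, adjusted p = 0.00665), also fell in PCA by limma. Scaled to the fibre list, Ryr1 (0.01) and Mtm1 (0.13) lay above 0 but below the all-gene median of 0.56 on that scale. Fkbp1a, which binds and steadies the ryanodine receptor, rose in both muscles. It was at 10.73, 10.65 and 10.58 in injured PCA, against 10.25, 10.17 and 10.08 in control PCA (0.49 ± 0.08, adjusted p = 0.0022), and at 10.48, 10.69 and 10.67 in injured AC, against 10.16, 10.00 and 10.14 in control AC (0.51 ± 0.08, adjusted p = 0.021). The AC call was lost under 8 of 25 alternatives. Dysf, a membrane repair protein, was at 0.03 ± 0.08 in PCA (adjusted p = 0.838) and 0.35 ± 0.08 in AC (adjusted p = 0.0586).

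Of 11 anchors and modulators of sodium channels 9 were measured, and in PCA 5 fell and 0 rose (median -0.33). These were the ankyrins Ank2 (-0.62 ± 0.09, limma adjusted p = 0.00114) and Ank3 (-0.33 ± 0.10, 0.0294), dystrophin Dmd (-0.54 ± 0.10, 0.0031), the intracellular growth factor homologue Fgf12 (-0.31 ± 0.09, 0.0271) and the sodium pump subunit Atp1b1 (-0.49 ± 0.10, 0.00661). Scaled to the fibre list, Dmd (0.05), Atp1b1 (0.10), Fgf12 (0.27) and Ank3 (0.25) lay above 0 in PCA. These values were below the all-gene median of 0.56 on that scale. The calls of Ank3 and Fgf12 were lost under 10 and 9 of 25 alternatives. In AC 0 of 9 passed by limma (5 at an unadjusted p under 0.05), and 9 of 9 differences were negative.

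**Figure D4:**
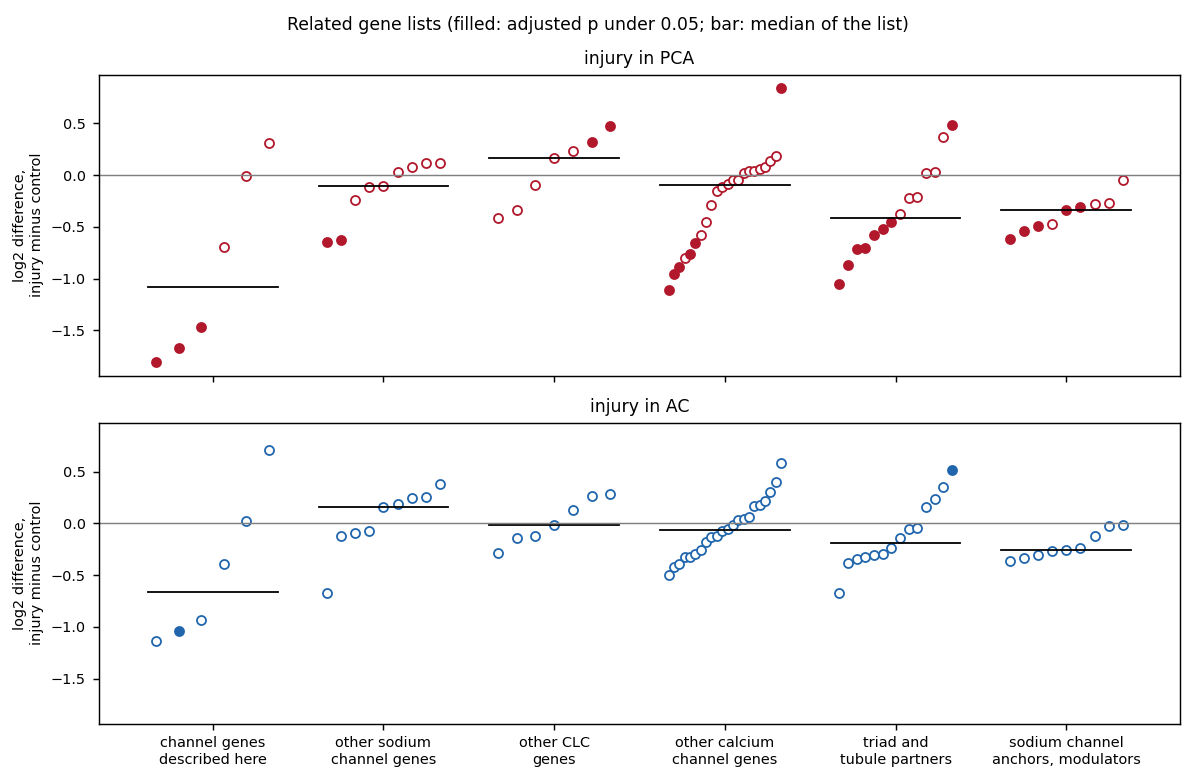
Injury minus control in log2 units for every measured gene of the members and of the 5 related lists, PCA above AC. Each point is a gene, filled where the adjusted p was under 0.05, and each bar is the list median. The members' median (-1.08 in PCA, -0.66 in AC) lies below those of the other lists, such as -0.42 and -0.19 for the triad. Members and lists were chosen with earlier results of these data known.

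Likeness of pattern was measured as the mean absolute difference over 12 arrays between the log2 values of a gene pair, each gene centred on its own mean. Among the members, Clcn1 and Clcn4 were closest (0.14), followed by Clcn1 and Scn4b (0.24) and by Cacng1 and Cacnb1 (0.27), and Scn4b and Cacnb1 were farthest apart (0.99). Over all genes, those most like Scn4a were Jph1, a junctophilin that ties tubule to reticulum (0.06), Mypn, the Z-disc protein myopalladin (0.07), and Pgm1, a phosphoglucomutase (0.07). Those most like Clcn1 were Acadm, an enzyme of fatty acid oxidation (0.10), Ppara, a nuclear receptor that regulates it (0.12), and Car14, a carbonic anhydrase (0.13). Acadm differed by -1.54 ± 0.21 in PCA (limma adjusted p = 0.00067) and -0.90 ± 0.21 in AC (adjusted p = 0.0543), beside -1.67 and -0.93 for Clcn1. These genes share arrays, specimens and fibre content, and their likeness has no test.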

How the data were processed

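RNA from 12 specimens (30 to 50 mg of tissue, 100 ng of total RNA labelled) was hybridised to whole-transcript rat arrays, 3 per group, with groups and replicate numbers from the sample titles. The authors deposited 1 log2 value per probe set and array. The submitters' processing notes name Partek and RMA, with neither versions nor roles. Base 2 was assumed for the log from the span of the values (2.57 to 14.04). Array medians were 7.11 to 7.17. Precision rests on the number of arrays (8 residual and 3.14 prior degrees of freedom). Quantile normalisation is the usual last step of RMA and makes values relative within an array.

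A single gene symbol was annotated for 15103 of 27342 probe sets. Those with several (317) or without any (11922) were not used. Against RefSeq gene identifiers of GRCr8, 15067 symbols matched, 36 did not, and 0 changed. Where a gene had more than 1 probe set (500 genes), the brightest by mean was used. The build behind the annotation is not given in the sources used here, so no probe coordinates are printed. Promoter sequences are from RefSeq.

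limma 3.58.1 in R 4.3.3 fitted 4 group means to 12 arrays, without a filter, and tested 5 contrasts by two-sided moderated tests. The fit was tested on simulated data with independent noise for each gene and array. These hold no shift shared by the genes of an array, so they do not test the effect of specimen differences. Python 3.11.15 and matplotlib 3.10.9 were used otherwise. Members, lists and alternatives were chosen with earlier results of these data known. Related genes named are up to 5 per list with the smallest adjusted p past 0.05 in any comparison, plus Cacna1h, Stac3, Ryr1, Clcn3 and Cacna2d1. Genes of like pattern are the 3 closest to Scn4a and to Clcn1.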

Additional observations from a re-analysis of the deposited data

How the results depend on the processing

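Across 25 alternatives, the falls of Clcn1 (-2.39 to -1.09) and Clcn4 (-1.92 to -0.84) in injured PCA kept their direction and passed limma each time, and Scn4b kept its direction. The count of members called in PCA (3) was 5 scaled to the fibre list, with or without the third injured PCA array. With all arrays, Cacnb1 and Cacng1 among these 5 passed upward, where this scaling called 54.3% of all genes higher. Without that array, scaling called 12920 of 14329 genes in PCA and 3960 in AC, 98.6% and 97.2% of them higher. The count in PCA was 3 to 4 with each array left out in turn. It was 2, without Scn4b, in the fits without the 3 thyroid arrays and with the squamous or the denervation score as a covariate. In AC (1 called) it was 4 with array weights, with the AC groups alone and scaled to the fibre list without that array, 0 without the 3 thyroid arrays and with the denervation score as a covariate, and 0 to 4 with each array left out. Between control muscles (0 called) it was 2 with array weights and with the control groups alone, and 0 to 1 with each array left out. For the difference of the injury effects (0 called) it was 1 (Scn4b) scaled to the fibre list without the third injured PCA array. That combination and the denervation covariate were chosen after seeing the data. Over all genes, 3697 were called in PCA and 340 to 12920 under alternatives, 274 in AC (0 to 3960), 1523 between control muscles (2 to 2626) and 22 for the difference (0 to 2403). Scaled to the fibre list, the share of calls that were higher was 98.1% against 51.4% in PCA, 89.8% against 60.2% in AC, 98.3% against 81.8% for the difference and 3.96% against 30.5% between control muscles. The cause of these moves was not tested. The squamous and denervation scores differ between injury and control, so as covariates they take precision. The denervation genes rose with injury in both muscles, 9 of 9 in each. The fit with their score therefore cannot separate it from injury, and no conclusion is drawn from calls lost or directions turned under it.

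Replicate numbers were checked for pairing. Deviations of same-numbered arrays from their group means correlated at -0.39 to 0.34, so the numbers were not taken to pair arrays. With replicate number as a block, 3 members were called in PCA as before and 0 in AC, where Clcn4 had an adjusted p of 0.0528. Over all genes the block gave 59 calls in AC, against 274.

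Some directions changed, 41 for members and 55 for related genes. Leaving out each array, the ranges that crossed 0 were, for Cacng1, -0.43 to 0.23 (injury in PCA), -0.13 to 0.20 (injury in AC), -0.45 to 0.21 (difference), -0.26 to 0.038 (control muscles) and -0.55 to 0.11 (injured muscles). Between injured muscles they were -0.43 to 0.20 for Scn4a, -0.50 to 0.11 for Clcn1, -0.16 to 0.27 for Clcn4 and -0.36 to 0.028 for Cacnb1. Dysf ranged from -0.005 to 0.070 in PCA and Dmd from -0.058 to 0.017 in AC. Without the 3 thyroid arrays, Cacng1 turned to 0.045 (injury in PCA) and 0.038 (control muscles) and Clcn4 to -0.050 (injured muscles). With the squamous covariate, Cacnb1 (-0.14) and Dysf (-0.12) turned for injury in PCA, and Cacng1 (0.57) between control muscles. With quantile normalisation repeated, Dmd was at 0.012 in AC.

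Scaled to the fibre list, injury in PCA turned for Cacng1 (0.58), Cacna1h (0.43), Ryr1 (0.009), Clcn3 (0.17), Mtm1 (0.13), Dmd (0.045), Atp1b1 (0.095), Fgf12 (0.27) and Ank3 (0.25). Without the third injured PCA array as well, it turned for Cacng1 (0.39), Cacna1h (0.77), Ryr1 (0.015), Clcn3 (0.26), Scn1a (0.12), Scn7a (0.21), Cacnb4 (0.093), Mtm1 (0.27), Ank2 (0.23), Dmd (0.25), Atp1b1 (0.39), Fgf12 (0.45) and Ank3 (0.48). Under both, injury in AC turned for Stac3 (0.007), Ryr1 (0.024), Clcn3 (0.030), Cacna2d1 (0.13), Scn1a (0.20), Cacnb4 (0.020), Mtm1 (0.080), Ank2 (0.077), Dmd (0.30), Atp1b1 (0.050), Fgf12 (0.19) and Ank3 (0.007). The all-gene median on this scale was 0.56 in PCA, or 0.79 without that array, and 0.33 in AC under both. Scaling also turned Cacng1 for the difference (0.23, and 0.044 without that array) and Scn4a between injured muscles (0.005). With the denervation covariate, injury in PCA turned for Cacnb1 (-0.46), Cacna1h (0.12) and Dysf (-0.026), and injury in AC for Cacng1 (-1.45), Cacnb1 (-0.38), Clcn5 (-0.17), Cacna1d (0.36), Cacnb2 (0.63) and Atp1b1 (0.098). It turned Scn4a (0.020) and Cacng1 (0.40) for the difference, Scn4b (-0.024) between control muscles, and Scn4a (0.056), Cacng1 (0.057) and Cacnb1 (0.017) between injured muscles. Of the other results for members, 25 passed newly and 11 no longer passed; for related genes these were 18 and 127.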
